A study of Mus musculus with 15 samples.

Results

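The genes described here lie on mouse chromosome 2 within 20 Mb of Mertk, the gene of the receptor tyrosine kinase through which the retinal pigment epithelium (RPE) engulfs shed photoreceptor outer segments. They were chosen by position and by a minimum of detection, which was a gene midpoint within 20 Mb of the window's centre at Mertk in GRCm38 and a summed count of at least 80 over the 8 Mertk libraries. This gave 246 genes of the 46078 in the count table. The window holds 728 genes in all, of which 477 were under the minimum (301 of them with no count in these libraries). A further 5 were left out by name, namely Mertk itself, Tyro3, Thbs1, Gchfr and Slc24a5. The nearest genes under the minimum were Pla2g4b (77 counts) and Gpat2 (75 counts), and the nearest above it were 5330413P13Rik (83 counts) and Disp2 (85 counts). At the edges of the window, Kcna4 at 107.3 Mb and Cst3 at 148.9 Mb fell outside, and Gm13910 at 108.9 Mb and Napb at 148.7 Mb fell inside. The window was proposed with results of the Mertk comparison known, so the number of its genes that differed is given as a description.

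RNA was taken from the RPE of female mice at postnatal day 14, starting 2 hours after light onset. The Mertk KO and Mertk WT groups had 4 libraries each. Bai1 Tg pos had 3 and Bai1 Tg neg 4, which carry or lack a transgene of the phosphatidylserine receptor Bai1 (gene symbol Adgrb1) and are all labelled wild type at Mertk. All 15 libraries share a strain label, a mixture of c57Bl/6J and B6;129-Mertktm1Grl/J. The exons that the Mertk allele lacks, the promoter of the Bai1 transgene and the number of animals behind a library are not stated by the labels. The labels do not say whether each replicate was another animal, and p-values therefore reflect only how far these libraries spread, technical variation included.

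As background, a gene disrupted in embryonic stem cells of one strain and crossed into another carries with it a stretch of flanking chromosome from the first strain. Recombination shortens that stretch with each generation of backcrossing, and the flanking genes keep the alleles of the first strain until it does. Mice with the disrupted gene and mice without it can then differ in alleles of the neighbouring genes as well as in the targeted one. Read counts per gene hold no alleles, so the strain of origin of each segment was not examined here.

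Mertk was examined first, as a check of the labels. It stood at 155 to 195.9 CPM (counts scaled to library size) in Mertk KO, at 233.3 to 261.9 CPM in Mertk WT and at 218 to 251.7 CPM in the Bai1 libraries. This sum over all exons had a log2 fold change of -0.48 (edgeR adjusted p = 0.0461) and checks the genotype only in part. Levels of Adgrb1 were 166.2 to 169.9 CPM in Bai1 Tg pos and, against its label, 143.5 CPM in the library labelled Bai1 Tg neg 4. Total counts ran from 9591129 to 20024507 per library. The 12 RPE markers summed to between 61310 and 71270 CPM in the 15 libraries. Rod photoreceptor transcripts (24 genes summed) varied from 1119 to 4312 CPM in Mertk WT, from 1186 to 1913 CPM in Mertk KO and from 304.9 to 969.2 CPM in the Bai1 libraries. In such bulk samples, fewer cells of a type and less RNA per cell cannot be told apart.

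The first comparison set Mertk KO against Mertk WT. Of 245 genes of the window that could be tested, 11 passed an adjusted p of 0.05, with 5 higher in Mertk KO (Bub1b, Fbln7, Rmdn3, Eif2ak4 and Sqor) and 6 lower (Sord, Ivd, Rassf2, Eif3j1, Ckmt1 and Lcmt2). Their log2 fold changes ran from -2.01 to 1.11. Over all 13447 genes tested the share past the threshold was 0.223% (0.0595% higher and 0.164% lower), against 4.49% in the window. Of the 13202 tested genes that are not among the 245, 19 passed (0.144%). Those 13202 include Mertk, left out by name, which is among the 19 (edgeR adjusted p = 0.0461). Because the window was proposed with this comparison known, nothing is read from that contrast of shares. In 33 window genes (13.5%) the 4 Mertk KO libraries lay entirely above (18 genes) or below (15 genes) the 4 Mertk WT libraries, against 3.52% of all genes tested (1.74% above and 1.78% below). An unadjusted p under 0.05 was found in 46 window genes (18.8%), against 5.58% of all genes. The median log2 fold change of the window was -0.035, against -0.001 over all genes, and the median size of the change without its sign was 0.16 against 0.116. Leaving out 1 library gave 6 to 12 genes, with 6 without Mertk WT 1, 3 or 4 and 7 without Mertk KO 1, 3 or 4. Ncaph, a condensin subunit, was too low to test.

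**Figure D1:**
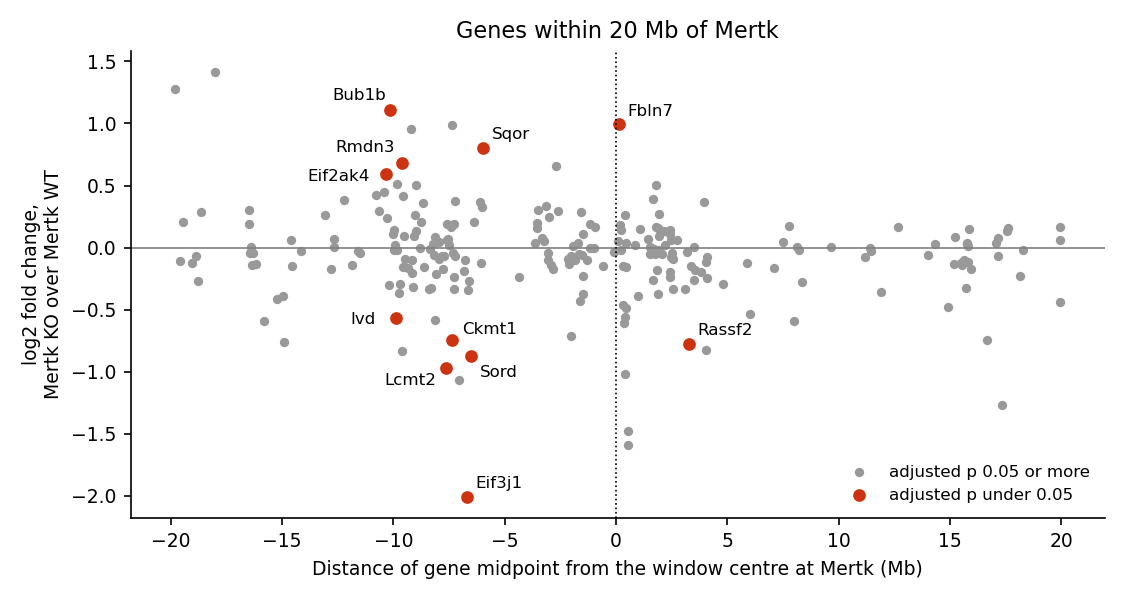
Fold change on the log2 scale, Mertk KO over Mertk WT (y axis), for the 245 tested genes against the distance of each gene's midpoint from the window centre at Mertk in Mb (x axis), with the 11 genes past an adjusted p of 0.05 in red and named. Of the 11, 9 lie between 10.32 and 5.96 Mb before the centre and 2, Fbln7 and Rassf2, lie after it.

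Bub1b encodes BubR1, a kinase-like protein of the spindle checkpoint that holds the cell in mitosis until all chromosomes are attached. It lies 10.13 Mb before the window centre (chr2:118598211-118641591, plus strand). Its level was 38.7, 39.3, 43.8 and 39.9 CPM in Mertk KO 1 to 4, and 15.9, 19.6, 17.8 and 21.8 CPM in Mertk WT 1 to 4. The groups did not overlap, and the 7 Bai1 libraries (15.7 to 20.03 CPM, median 17.2) sat within or just below the Mertk WT range. The means were 40.4 ± 2.31 CPM and 18.7 ± 2.51 CPM (SD, n = 4 each), a log2 fold change of 1.11 (SE 0.112, edgeR adjusted p = 0.000966).

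No other gene of cell division examined passed the test in Mertk KO against Mertk WT. Of 20 tested genes of cell division and DNA replication in the window, Bub1b was the 1 that passed, 9 had a log2 fold change above 0 and the median was -0.047. Of 12 tested genes of the spindle checkpoint and mitosis elsewhere in the genome, none passed, 3 were above 0 and the median was -0.34. Mki67, which marks proliferating cells, had a mean of 0.346 ± 0.115 CPM in Mertk KO against 2.52 ± 1.79 CPM in Mertk WT (SD, n = 4 each, edgeR adjusted p = 0.064). Its log2 fold change was -2.83, opposite in direction to that of Bub1b. The mitotic kinase Plk1 was at 0.259 ± 0.0492 CPM and 0.928 ± 0.272 CPM (log2 fold change -1.825, adjusted p = 0.335). The Mertk KO and Mertk WT libraries did not overlap in Mki67 or in Plk1. In Mertk KO both were near the level of the 3 counts taken as the floor for undetected genes, which correspond to between 0.15 and 0.313 CPM. Bub3, which binds BubR1, was at 46.3 ± 2.64 CPM and 45.6 ± 3.18 CPM (log2 fold change 0.02, adjusted p = 0.983). Within the window, Ckap2l, a spindle protein, ran from 0.118 to 0.969 CPM in Mertk KO and from 0.734 to 2.42 CPM in Mertk WT, overlapping ranges (log2 fold change -1.59, SE 0.567, adjusted p = 0.689). The DNA polymerase clamp Pcna, chosen after its values were seen, was at 29.9 ± 4.43 CPM and 35.6 ± 2.85 CPM (log2 fold change -0.26, adjusted p = 0.89).

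**Figure D2:**
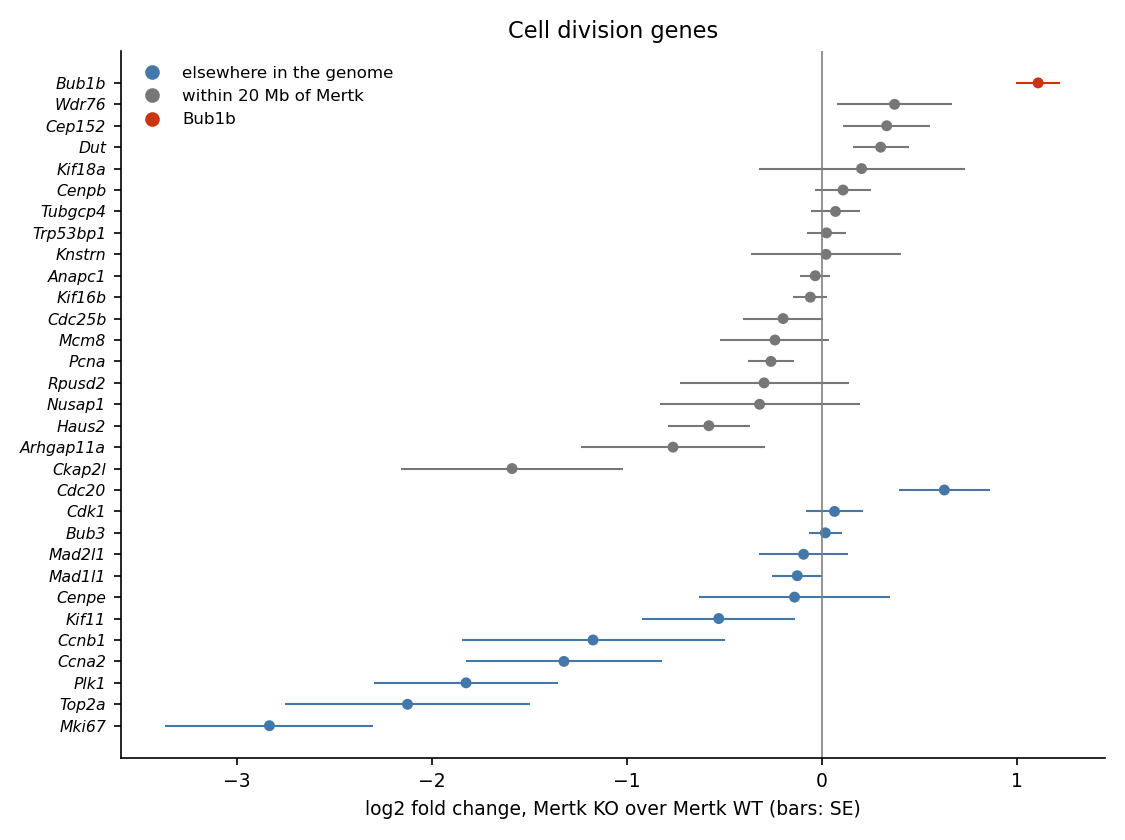
Mertk KO over Mertk WT as a log2 fold change with its SE (x axis) for cell division genes (y axis), those elsewhere in the genome in blue, those within 20 Mb of Mertk in grey and Bub1b in red. Bub1b stands at 1.11, and the other genes did not pass the test.

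Fbln7 encodes fibulin 7, a secreted adhesion protein of the extracellular matrix, and was the changed gene closest to Mertk, 0.13 Mb after the window centre (chr2:128862981-128897034, plus strand). Its level was 51.0, 63.2, 66.1 and 60.8 CPM in Mertk KO 1 to 4, and 27.6, 32.8, 28.2 and 32.0 CPM in Mertk WT 1 to 4. No library of one group reached the range of the other. The means were 60.3 ± 6.58 CPM and 30.1 ± 2.64 CPM (SD, n = 4 each), a log2 fold change of 1.00 (SE 0.105, edgeR adjusted p = 0.000966). It was the 1 gene to pass of 13 tested matrix and secreted-protein genes, 5 of which were above 0, with a median of -0.12. Among the others, Chst14, a dermatan sulfotransferase, was at 9.45 ± 1.13 CPM in Mertk KO against 6.58 ± 0.765 CPM in Mertk WT (log2 fold change 0.51, adjusted p = 0.548).

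The promoters of Bub1b and Fbln7, which rose, and of Sord and Ivd, which fell, are shown because these 4 genes passed the test under every alternative examined, and the letters let each gene's upstream stretch be compared. They are the 250 reference bases before each start that RefSeq annotates in GRCm38.p6, 5′ to 3′, which can differ from the start in the count table, all on the plus strand of chromosome 2. They are not the alleles of these libraries. Capitals mark matches, on either strand, to any of 4 motifs. One is GGGCGG, known as the GC box and bound by Sp proteins. Another is CCAAT, the box bound by the factor NF-Y. The element TATAAA positions the start of transcription at some promoters. The last is TTTGAA, called CHR, which is known from promoters of genes active late in the cell cycle. The stretches are chr2:118597961-118598210 for Bub1b, chr2:128863682-128863931 for Fbln7, chr2:122234589-122234838 for Sord and chr2:118861744-118861993 for Ivd.
Bub1b: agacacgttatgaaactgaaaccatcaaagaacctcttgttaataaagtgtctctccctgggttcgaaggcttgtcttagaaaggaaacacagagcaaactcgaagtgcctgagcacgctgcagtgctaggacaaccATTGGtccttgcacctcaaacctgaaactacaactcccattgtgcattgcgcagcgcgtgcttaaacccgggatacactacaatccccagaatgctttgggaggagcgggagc
Fbln7: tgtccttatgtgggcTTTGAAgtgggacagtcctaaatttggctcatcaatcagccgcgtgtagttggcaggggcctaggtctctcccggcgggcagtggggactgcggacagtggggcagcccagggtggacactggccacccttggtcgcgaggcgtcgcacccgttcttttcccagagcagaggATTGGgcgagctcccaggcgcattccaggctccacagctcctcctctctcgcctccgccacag
Sord: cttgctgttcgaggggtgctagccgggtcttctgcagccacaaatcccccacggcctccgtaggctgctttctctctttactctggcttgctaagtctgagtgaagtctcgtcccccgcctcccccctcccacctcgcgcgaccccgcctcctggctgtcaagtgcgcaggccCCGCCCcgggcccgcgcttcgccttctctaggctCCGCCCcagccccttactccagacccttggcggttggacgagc
Ivd: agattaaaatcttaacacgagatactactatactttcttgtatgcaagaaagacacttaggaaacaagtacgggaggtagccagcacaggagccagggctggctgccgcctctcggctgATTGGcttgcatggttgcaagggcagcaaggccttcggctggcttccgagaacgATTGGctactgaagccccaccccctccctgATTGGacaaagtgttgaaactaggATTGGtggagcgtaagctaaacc
Bub1b held 1 CCAAT box, Fbln7 held 1 CCAAT box and 1 CHR element, Sord held 2 GC boxes and Ivd held 4 CCAAT boxes. Over the 209 window genes with a promoter in the table, 59.3% held a GC box, 39.2% a CCAAT box, 2.87% a TATA box and 12.9% a CHR element. Over all 32851 promoters of the table the shares were 32.7%, 33.8%, 12.4% and 16%. The window shares take the first listed start of each detected gene. The shares over the table take every listed start and have no minimum of detection, so these sets are unlike and no contrast is read from them. Among the 11 changed genes, 4 held a GC box, 4 a CCAAT box, 1 a TATA box and 1 a CHR element. A match is a description of letters and not a site of binding.

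The list of mitochondrial and metabolic genes held 25 of the 245 tested genes of the window and 5 of the 11 that passed, and no enrichment was tested. Of those 25, Sqor and Rmdn3 rose, Sord, Ivd and Ckmt1 fell, 7 were above 0 and the median was -0.051. Their summed level was 1383 to 1448 CPM in Mertk KO and 1533 to 1642 CPM in Mertk WT. It was 1437 to 1610 CPM in Bai1 Tg pos, which reached into the Mertk KO range, and 1507 to 1554 CPM in Bai1 Tg neg. The sum includes the 5 genes that passed.

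Sord, sorbitol dehydrogenase, turns sorbitol into fructose in the polyol pathway. It lies 6.5 Mb before the window centre (chr2:122234749-122265340, plus strand). Its level was 59.9, 63.7, 59.7 and 56.0 CPM in Mertk KO 1 to 4, and 97.8, 136, 111 and 91.7 CPM in Mertk WT 1 to 4. All Mertk KO libraries were lower, and the Mertk WT libraries were the more spread. The means were 59.8 ± 3.18 CPM and 109 ± 19.6 CPM (SD, n = 4 each), a log2 fold change of -0.87 (SE 0.11, edgeR adjusted p = 0.00407). Gm6652 on chromosome 1 carries a near-identical sequence over 1070 bases, and with its counts added to those of Sord the change was -0.88 (adjusted p = 0.00104), an alternative added after the values were seen. Of 8 tested genes of polyol and fructose metabolism, Sord was the 1 that passed. Akr1b3, the aldose reductase that makes sorbitol, was at 24.9 ± 5.93 CPM and 25.8 ± 2.68 CPM, and Khk, ketohexokinase, was at 14.2 ± 2.03 CPM and 11.03 ± 1.86 CPM (adjusted p = 0.89).

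Ivd, isovaleryl-CoA dehydrogenase, acts in mitochondria in the breakdown of leucine. It lies 9.88 Mb before the centre (chr2:118861954-118882909, plus strand). Its level was 127, 130, 121 and 142 CPM in Mertk KO 1 to 4, and 191, 198, 180 and 198 CPM in Mertk WT 1 to 4. The groups were apart, and their spreads were alike at 130 ± 8.67 CPM and 192 ± 8.57 CPM (SD, n = 4 each). The log2 fold change was -0.57 (SE 0.0744, edgeR adjusted p = 0.00464). Of 11 tested genes of leucine breakdown, Ivd was the 1 that passed, 6 were above 0 and the median was 0.048. Auh, which acts later in the same pathway, was at 50.2 ± 1.35 CPM and 43.5 ± 3.00 CPM (log2 fold change 0.20, adjusted p = 0.818).

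Ckmt1, mitochondrial creatine kinase, transfers phosphate from ATP to creatine. It lies 7.39 Mb before the centre (chr2:121357714-121363737, plus strand). Its level was 21.4, 27.3, 22.2 and 18.98 CPM in Mertk KO 1 to 4, and 34.6, 42.6, 39.8 and 32.8 CPM in Mertk WT 1 to 4. The groups were apart (log2 fold change -0.75, SE 0.126, edgeR adjusted p = 0.0315). The call was lost when Mertk KO 1, 3 or 4 or Mertk WT 1, 3 or 4 was left out, with an adjusted p of 0.0525 to 0.133.

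Sqor, sulfide quinone oxidoreductase, takes up hydrogen sulfide in mitochondria. It lies 5.96 Mb before the centre (chr2:122765237-122809569, plus strand). Its level was 14.5, 17.3, 17.9 and 14.7 CPM in Mertk KO 1 to 4, and 8.34, 10.5, 8.41 and 9.47 CPM in Mertk WT 1 to 4. Every Mertk KO library was higher (log2 fold change 0.80, SE 0.139, edgeR adjusted p = 0.0336). The call was lost when any library other than Mertk WT 2 was left out, with an adjusted p of 0.057 to 0.145. Of 6 tested genes of sulfide metabolism, Sqor was the 1 that passed, and Mpst, which makes sulfide, was at 29.7 ± 4.58 CPM and 26.6 ± 6.71 CPM (SD, n = 4 each, adjusted p = 0.921).

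Rmdn3, also called PTPIP51, tethers mitochondria to the endoplasmic reticulum. It lies 9.6 Mb before the centre (chr2:119137001-119157034, minus strand). Its level was 119, 113, 131 and 120 CPM in Mertk KO 1 to 4, and 69.3, 69.9, 84.1 and 76.4 CPM in Mertk WT 1 to 4. Every Mertk KO library was above every Mertk WT library (log2 fold change 0.68, SE 0.0865, edgeR adjusted p = 0.00407).

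Eif2ak4 encodes GCN2, the kinase that senses a lack of amino acids and slows translation through eIF2. It lies 10.32 Mb before the centre (chr2:118388618-118475234, plus strand). Its level was 52.0, 46.2, 51.2 and 58.6 CPM in Mertk KO 1 to 4, and 35.1, 34.7, 36.4 and 31.3 CPM in Mertk WT 1 to 4. The lowest Mertk KO library was above the highest Mertk WT library (log2 fold change 0.59, SE 0.0954, edgeR adjusted p = 0.0214). Leaving out Mertk KO 1, 3 or 4 or Mertk WT 1, 3 or 4 lost the call, with an adjusted p of 0.056 to 0.0895. Of 10 tested genes of the eIF2 kinases and the integrated stress response, Eif2ak4 was the 1 that passed, and the median was 0.002. Atf4, the transcription factor that this response induces, was at 296 ± 71.8 CPM and 293 ± 45.8 CPM, and its target Trib3 at 2.56 ± 0.343 CPM and 1.66 ± 0.672 CPM (SD, n = 4 each, adjusted p = 0.905).

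Rassf2, a Ras-binding adaptor and tumour suppressor, was the changed gene farthest beyond Mertk, 3.26 Mb after the centre (chr2:131989415-132030258, minus strand). Its level was 29.4, 35.9, 38.6 and 29.2 CPM in Mertk KO 1 to 4, and 58.2, 60.7, 55.3 and 52.5 CPM in Mertk WT 1 to 4. The groups were apart (log2 fold change -0.77, SE 0.108, edgeR adjusted p = 0.00685). Of 21 tested genes of signalling, apoptosis and ubiquitin in the window it was the 1 that passed, 5 were above 0 and the median was -0.064.

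Lcmt2, also called Tyw4, methylates and modifies phenylalanine tRNA. It lies 7.62 Mb before the centre (chr2:121128307-121140653, minus strand). Its level was 9.08, 9.27, 12.2 and 9.85 CPM in Mertk KO 1 to 4, and 20.8, 15.3, 24.6 and 18.1 CPM in Mertk WT 1 to 4. No Mertk KO library reached the Mertk WT range (log2 fold change -0.97, SE 0.166, edgeR adjusted p = 0.0327). Leaving out Mertk KO 1, 2 or 4 or Mertk WT 1, 3 or 4 lost the call, with an adjusted p of 0.0877 to 0.152. It shares 226 of 3350 exon bases with Adal on the other strand, an adenosine deaminase-like gene with a log2 fold change of 0.06 (adjusted p = 0.958).

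Eif3j1, a subunit of the translation initiation factor eIF3, had the largest fitted change of the 11, and near-identical copies make it uncertain. It lies 6.71 Mb before the centre (chr2:122028546-122056598, plus strand). Its level was 3.33, 1.01, 1.66 and 3.01 CPM in Mertk KO 1 to 4, and 8.003, 8.23, 11.8 and 8.53 CPM in Mertk WT 1 to 4. The groups were apart (log2 fold change -2.01, SE 0.319, edgeR adjusted p = 0.0214). A near-identical gene, Eif3j2 on chromosome 18 (99.4% identity over 2379 bases), went the other way, with 635 counts over the Mertk KO libraries and 264 over the Mertk WT libraries, against 152 and 528 for Eif3j1. With both genes' counts added together, an alternative chosen after the values were seen, the log2 fold change was -0.20 (SE 0.166, adjusted p = 0.913). With Gm3650, a shorter copy on chromosome 18, also added, it was 0.09 (adjusted p = 0.951). The division of reads between these copies cannot be settled from the counts, and Eif3j1 also shares 1107 of 5830 exon bases with Spg11 on the other strand. The call was also lost without Mertk KO 3, or without Mertk WT 1, 3 or 4, with an adjusted p of 0.0528 to 0.101. Of 27 tested genes of RNA processing and translation in the window, Eif2ak4 rose, Eif3j1 fell, 14 were above 0 and the median was 0.003.

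**Figure D3:**
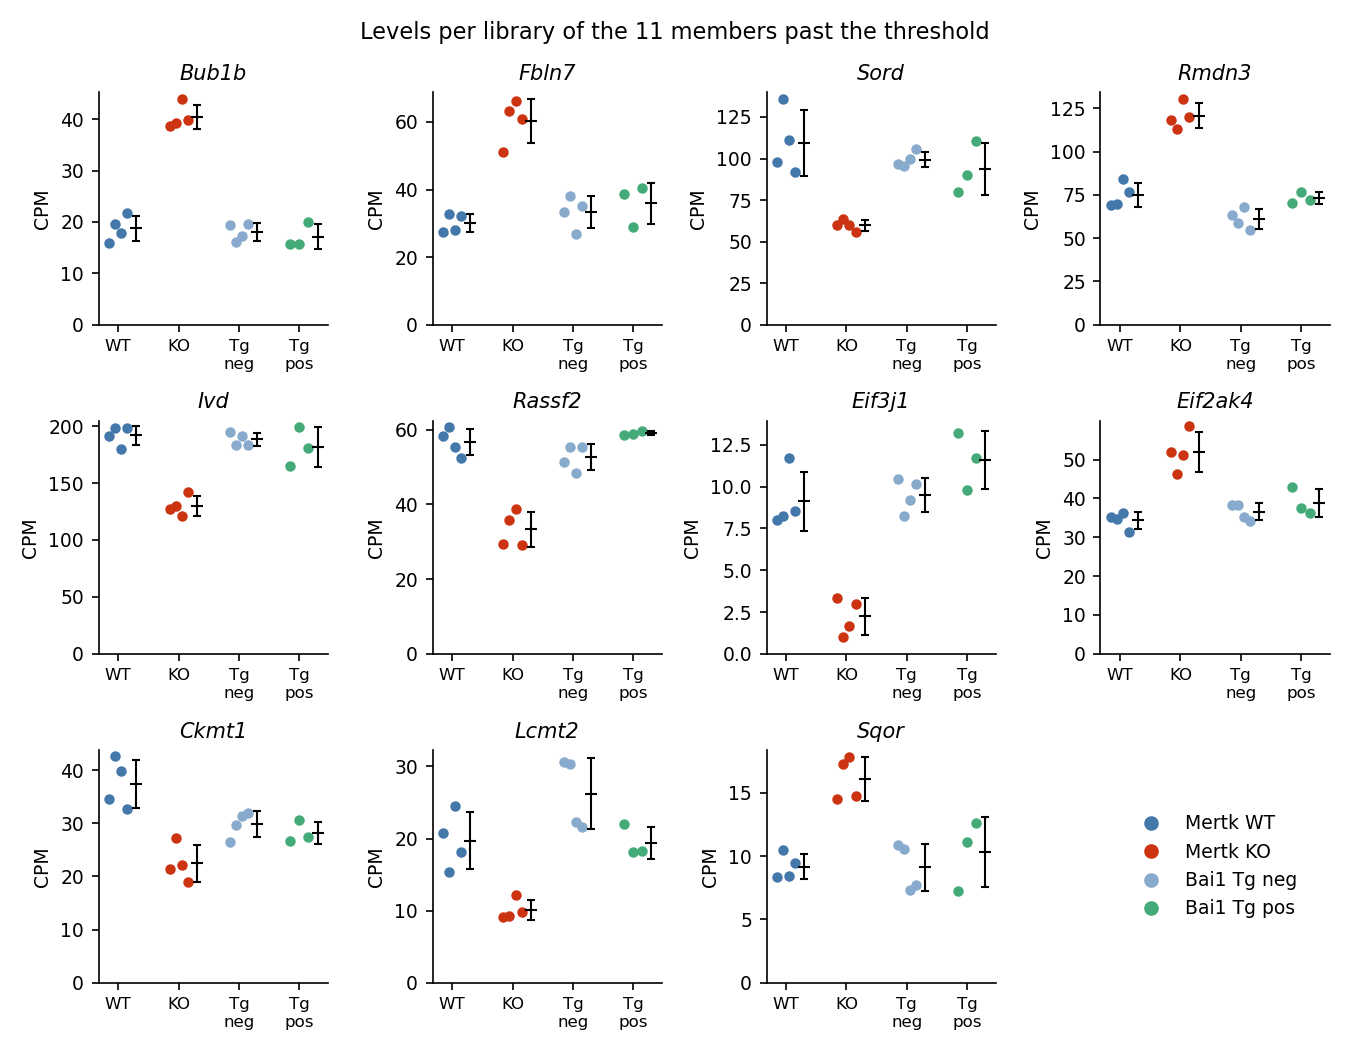
Levels in CPM (y axis, from 0) of the 11 changed genes in Mertk WT, Mertk KO, Bai1 Tg neg and Bai1 Tg pos (x axis), with 1 point per library. In each panel the 4 Mertk KO points lie apart from the 4 Mertk WT points, as for Bub1b at 38.7 CPM and above against 21.8 CPM and below.

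The 6 genes of smallest p that missed the threshold were 5 with lower and 1 with higher levels in Mertk KO. Tmem127, a lysosomal membrane protein that restrains mTOR, was at 113, 125, 118 and 127 CPM in Mertk KO and 148, 171, 153 and 153 CPM in Mertk WT (log2 fold change -0.38, SE 0.0743, edgeR adjusted p = 0.0861). Muc15, a membrane mucin, was at 18.9, 18.2, 13.7 and 11.3 CPM in Mertk KO and 5.51, 8.07, 6.41 and 2.81 CPM in Mertk WT (log2 fold change 1.42, SE 0.269, adjusted p = 0.0901). Both had groups that were apart. Polr1b, a subunit of RNA polymerase I, was at 14.3, 15.2, 13.1 and 14.2 CPM and at 20.1, 24.0, 23.6 and 18.1 CPM (log2 fold change -0.60, SE 0.122, adjusted p = 0.1). Its groups were apart too. Plekha5 on chromosome 6, a different gene, matches it over 193 bases (97.9% identity). All counts of Plekha5, 886 in Mertk KO and 786 in Mertk WT, were added, those from outside that stretch included. The change was then -0.33 (adjusted p = 0.544), which does not show what the shared stretch alone would add. Vps39, which acts in fusion of vesicles with lysosomes, had a change of -0.34 (adjusted p = 0.227), Ganc, an alpha-glucosidase, one of -0.32 (adjusted p = 0.353), and Spg11, needed to re-form lysosomes, one of -0.34 (adjusted p = 0.356). The Mertk KO libraries were below all Mertk WT libraries in Vps39 (71.3 to 85.0 CPM against 91.8 to 101 CPM), Ganc (54.8 to 59.9 CPM against 66.5 to 82.2 CPM) and Spg11 (53.0 to 59.4 CPM against 62.1 to 78.6 CPM). Gm3650 on chromosome 18 is near-identical to Spg11 over 747 bases (99.9% identity), and all its 174 reads came from Mertk KO. With this copy added, the change of Spg11 was -0.28 (edgeR adjusted p = 0.585). Whether the Spg11 groups stay apart with the copy added was not tested.

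By distance from the centre, 9 of the 11 changed genes lay before it. Over all genes tested, 0.223% passed, 3.52% had groups that were apart and 5.58% had an unadjusted p under 0.05 by edgeR. Between 10 and 5 Mb before the centre, 7 of 67 tested genes passed, 17 had groups that were apart and 23 had such a p. Between 15 and 10 Mb before it, 2 of 21 passed, 3 were apart and 3 had such a p. In the 5 Mb after it the counts were 2, 7 and 12 of 62. No gene passed among the 17 that lie 20 to 15 Mb before the centre (2 apart, 3 with such a p). None passed among the 36 tested in the last 5 Mb before it (3 apart, 3 with such a p). Farther than 5 Mb after the centre, the bins of 10, 8 and 24 tested genes held no gene that passed. There 0, 0 and 1 were apart, and 0, 0 and 2 had such a p.

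Among the tested genes nearest to Mertk that are described here, Fbln7 was the 1 that passed. Anapc1, the largest subunit of the anaphase-promoting complex and 0.1 Mb before the centre, was at 147, 134, 153 and 135 CPM in Mertk KO and 144, 156, 146 and 135 CPM in Mertk WT, overlapping groups (log2 fold change -0.03, SE 0.0764, edgeR adjusted p = 0.958). Tmem87b, a Golgi membrane protein 0.09 Mb after it, was at 63.9 ± 5.12 CPM and 61.4 ± 4.02 CPM (log2 fold change 0.05, adjusted p = 0.943). Bcl2l11, which encodes the apoptosis inducer BIM, was at 12.2 ± 0.495 CPM and 13.5 ± 2.56 CPM (adjusted p = 0.914). Mtln, a mitochondrial micropeptide, Zc3h8, a zinc-finger protein, and Gm10762 had log2 fold changes of 0.16, 0.18 and 0.14. Their SEs were 0.192, 0.153 and 0.23, above the change in Mtln and Gm10762, and their adjusted p was 0.914 to 0.941. None of these 6 genes passed, and their groups overlapped.

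Within the clusters of changed genes, neighbours went in opposite directions. Each cluster was drawn from the calls themselves, by joining changed genes whose midpoints lay within 1 Mb of the next. Both ends of a stretch therefore passed by construction, and its counts are only a description. Over all genes tested, 0.223% passed and 5.58% had an unadjusted p under 0.05 by edgeR. From Eif2ak4 to Rmdn3, 0.72 Mb with 15 tested genes, 4 passed and 8 had an unadjusted p under 0.05. The log2 fold changes of those 4 ran from -0.57 to 1.11, with Eif2ak4, Bub1b and Rmdn3 higher and Ivd lower. From Lcmt2 to Sqor, 1.65 Mb with 27 tested genes, 5 passed and 12 had an unadjusted p under 0.05. The changes of those 5 ran from -2.01 to 0.80. There Sqor was higher and Lcmt2, Ckmt1, Eif3j1 and Sord were lower. The median size of change in the genes that did not pass was 0.24 in the first stretch and 0.188 in the second. Several of these neighbours, chosen after their values were seen, were Srp14 of the signal recognition particle, at 93.4 ± 4.03 CPM in Mertk KO against 78.8 ± 7.66 CPM in Mertk WT (adjusted p = 0.624), Bloc1s6, which builds lysosome-related organelles such as melanosomes, at 36.2 ± 3.05 CPM and 28.7 ± 1.63 CPM (adjusted p = 0.467), and the sperm calcium channel subunit Catsper2, at 3.94 ± 0.915 CPM and 1.98 ± 0.447 CPM (adjusted p = 0.429).

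**Figure D4:**
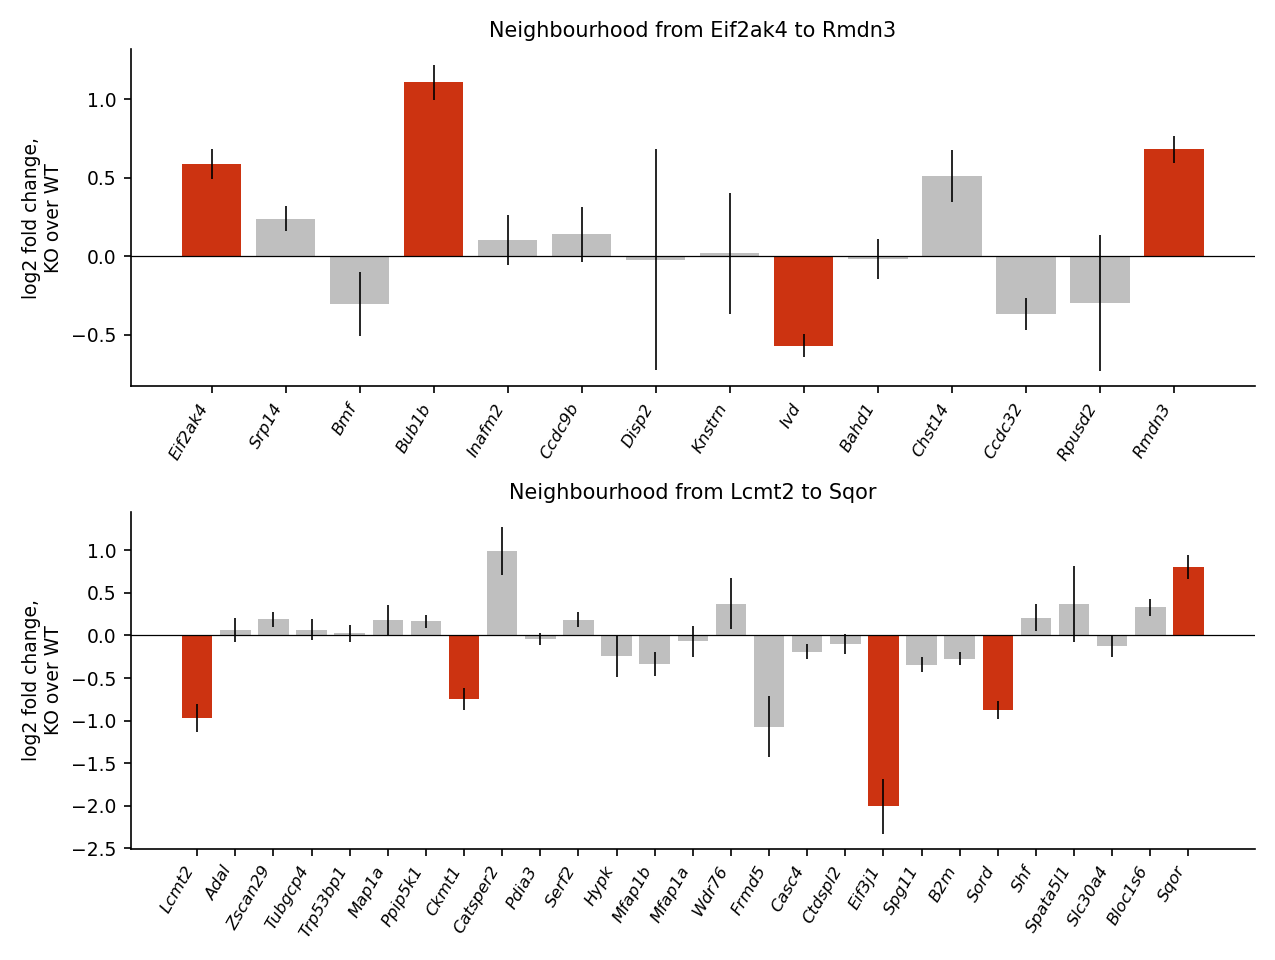
Mertk KO over Mertk WT as log2 fold changes (bars, with SE, y axis) for tested genes between Eif2ak4 and Rmdn3 and between Lcmt2 and Sqor (x axis, in order along the chromosome), with the changed genes in red. In the first stretch the changed genes run from -0.57 to 1.11 and in the second from -2.01 to 0.80.

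None of the 5 genes with the highest count per kilobase of exon in Mertk WT passed. B2m, the light chain of MHC class I, was the highest per kilobase and stood at 258, 249, 229 and 235 CPM in Mertk KO and 300, 322, 278 and 270 CPM in Mertk WT, with groups apart (log2 fold change -0.27, SE 0.0768, edgeR adjusted p = 0.426). Pdia3, a chaperone of the endoplasmic reticulum, was at 352 ± 23.8 CPM and 360 ± 17.8 CPM (adjusted p = 0.95). Dstn, which depolymerises actin, was at 156 ± 16.7 CPM and 170 ± 21.4 CPM, the splicing protein Snrpb at 177 ± 15.2 CPM and 168 ± 28.6 CPM, and the phosphatase Ptpra at 226 ± 9.84 CPM and 234 ± 13.1 CPM, with an adjusted p of 0.91 to 0.948.

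A further 3 groups of the window held no gene that passed. Of 24 tested genes of membrane traffic and organelles 11 were above 0 (median -0.012), and of 10 membrane transporters and channels 3 were (median -0.15). Of the transporters, Slc24a3, a potassium-dependent sodium-calcium exchanger, was at 3.52 ± 1.21 CPM in Mertk KO against 5.94 ± 2.17 CPM in Mertk WT (adjusted p = 0.861). Of 12 neuronal and synaptic genes 3 were above 0 and the median was -0.28. Chgb, a secretory granule protein, was at 1.42 to 3.87 CPM in Mertk KO and 2.08 to 8.39 CPM in Mertk WT (log2 fold change -0.83, adjusted p = 0.9), and Napb, which recycles SNARE complexes in neurons, was at 8.01 ± 2.72 CPM and 10.8 ± 2.23 CPM (adjusted p = 0.905). No rod marker passed either, and 1 of 24 was above 0 with a median of -0.63. Their summed level was 1186 to 1913 CPM in Mertk KO against 1119 to 4312 CPM in Mertk WT. The part of rod RNA in these values was not tested. With the rod level as a covariate, 12 window genes passed, including all 11 of the genes named above.

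The Bai1 libraries gave a second set of mice with wild-type Mertk. In Bai1 Tg pos against Bai1 Tg neg, 0 of 243 window genes passed by edgeR and 0 by DESeq2, and 15 had an unadjusted p under 0.05 (6.17%, against 5.18% of all genes). Over all 13855 genes tested 2 passed (0.0144%). Leaving out Bai1 Tg neg 4, where Adgrb1 went against the label, 0 window genes passed, and without Bai1 Tg pos 3, 1 did.

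When the 4 Mertk WT libraries were set against the 7 Bai1 libraries, 1 of 243 window genes passed, a higher one, against 0.311% of all genes (0.26% higher and 0.0506% lower). An unadjusted p under 0.05 was found in 24 (9.88%), against 8.18% of all genes. The gene that passed was AI847159, a transcript without a named product, chosen after its values were seen. It was at 1.82, 13.6, 6.61 and 2.91 CPM in Mertk WT 1 to 4 and 0.077 to 1.49 CPM (median 0.374) in the Bai1 libraries (log2 fold change 3.43, edgeR adjusted p = 0.0344). The lowest Bai1 values reached below the floor for undetected genes, 0.15 to 0.313 CPM, which limits the precision of that change. The high libraries, Mertk WT 2 and 3, are also those with the most rod transcripts, 4312 and 3364 CPM. The part of rod RNA in that difference was not tested. Leaving out Mertk WT 2 or 3, Bai1 Tg pos 1 or 3, or any Bai1 Tg neg library left no window gene past the threshold. DESeq2 called 5 window genes there. None of the 11 genes changed in Mertk KO passed this comparison by edgeR.

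Mertk KO set against the Bai1 libraries shares its 4 Mertk KO libraries with the first comparison, so the values stand side by side and are not independent. Of 243 window genes 37 passed (15.2%, 11 higher and 26 lower), against 3.94% of all genes tested (1.87% higher and 2.07% lower). An unadjusted p under 0.05 was found in 71 (29.2%), against 19.6% of all genes. All 11 genes named above were among them, in the same direction. Bub1b had a log2 fold change of 1.18 (edgeR adjusted p = 7.07e-07) and Rmdn3 of 0.85 (adjusted p = 9.66e-06). Sord had -0.71 (adjusted p = 5.29e-05), Ivd -0.52 and Rassf2 -0.75. Without Mertk KO 2, 3 or 4, the count was 22, 20 and 20. The Bai1 libraries differ from the Mertk libraries in the first tag number of their labels and in rod level, and these cannot be told apart from genotype here.

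For 10 of the 11 changed genes, all 7 Bai1 libraries lay outside the Mertk KO range on the side of Mertk WT. These 11 genes were chosen by the same Mertk KO libraries, so the count is not independent of the first comparison. The same held for 15 of the 19 other genes that passed, Mertk itself among them, and for 4.01% of all genes tested. The exception in the window was Ckmt1, whose Bai1 levels ran from 26.5 to 31.9 CPM against a highest Mertk KO value of 27.3 CPM. Of the 77 single values, 75 were on the side of Mertk WT and 37 were inside the Mertk WT range. For Sord, the Bai1 libraries were at 79.95 to 110 CPM (median 96.6), for Fbln7 at 26.8 to 40.3 CPM (median 35.0) and for Eif2ak4 at 34.1 to 42.9 CPM (median 37.5).

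**Figure D5:**
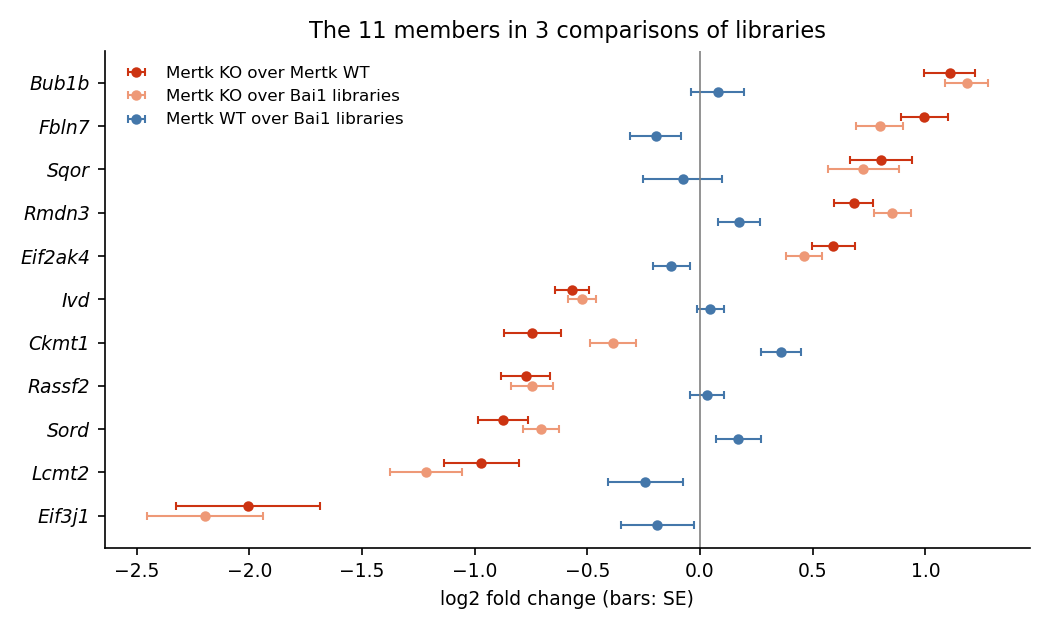
Log2 fold changes with SE (x axis) of the 11 changed genes (y axis) in Mertk KO over Mertk WT, Mertk KO over the Bai1 libraries and Mertk WT over the Bai1 libraries. Bub1b stands at 1.11, 1.18 and 0.08 in the 3 comparisons, which share libraries.

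The next 4 genes passed against the Bai1 libraries but not against Mertk WT, a choice made after seeing their values. Meis2, a homeobox factor, was at 41.4 ± 2.96 CPM in Mertk KO, 46.6 ± 3.65 CPM in Mertk WT and 48.2 to 62.0 CPM (median 55.2) in the Bai1 libraries, with a log2 fold change against the Bai1 libraries of -0.42 (edgeR adjusted p = 0.00712). Lgr4, the receptor that strengthens Wnt signalling on binding R-spondins, was at 86.0 ± 9.69 CPM, 103 ± 16.5 CPM and 101 to 119 CPM (log2 fold change -0.37, adjusted p = 0.0071). Pcna was at 40.2 to 63.0 CPM in the Bai1 libraries, above every Mertk library (log2 fold change of Mertk KO -0.70, adjusted p = 0.00391, and of Mertk WT -0.44, adjusted p = 0.11). Flrt3, a cell adhesion protein, was at 3.15 ± 1.39 CPM, 3.99 ± 1.33 CPM and 6.29 to 9.94 CPM (log2 fold change -1.27, adjusted p = 0.016). In these 4 genes the Mertk WT mean was also below the Bai1 median.

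The first tag number is 17 in 3 libraries of each Mertk group and 21 in the other 1 of each. With tag 17 alone, an alternative added after the values were seen, 5 window genes passed, namely Bub1b, Fbln7, Sord, Ivd and Muc15 (adjusted p = 0.0458). Rmdn3 (adjusted p = 0.0581) and Rassf2 (adjusted p = 0.0733) missed there, with log2 fold changes of 0.70 and -0.75. Tag 21 has 1 library a group and gives no test.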

How the data were processed

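RNA from the RPE was sequenced in 15 libraries. The authors deposited 1 table of raw counts of fragments per gene. Per the labels' protocols, libraries were made from poly-A RNA with the TruSeq kit. The alignment was to GRCm38 with STAR, per the submitters' processing notes. Per the file headers, featureCounts 1.5.0 counted fragments without a strand option, so strand did not separate genes that overlap on opposite strands. How fragments in such overlaps were assigned was not examined. Neither the STAR version nor the annotation release is given in the sources used here. Ensembl identifiers gave symbols for 45143 genes, all 246 described here among them.

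From these counts, CPM was computed with TMM factors over the 15 libraries, and edgeR 4.0.16 under R 4.3.3 tested each comparison (filterByExpr, TMM, robust quasi-likelihood F test, two-sided). P-values were adjusted over all genes tested by Benjamini-Hochberg with a threshold of 0.05. Each SE is the fold change divided by the root of F. The procedure was tested on simulated data. Mertk KO against Mertk WT used 8 libraries, the Bai1 comparison 7, and 2 further fits set each Mertk group against the 7 Bai1 libraries. Replicates differed by more than sampling noise in every pair (chi-square per degree of freedom at least 5.28). A floor of 3 counts served only as a level against which low values were read. It was not applied in any fit and covers counting error only.

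A search with blastn 2.17.0 among GENCODE transcripts (GRCm38) gave near-identical copies, promoters come from RefSeq (GRCm38.p6), and 209 of the 246 genes matched. Gene lists were described by counts and medians. The members and lists were chosen with earlier results of these data known. Genes named are all those past the threshold in Mertk KO against Mertk WT, the 6 of smallest p that missed, the 4 nearest Mertk on either side, the 5 of highest count per kilobase, the 2 of smallest p in each list, genes past the threshold in the Bai1 comparison, and copies or overlapping genes. Bub3, Akr1b3, Atf4, Pcna, Meis2, Lgr4, Flrt3, Srp14, Bloc1s6, Catsper2, AI847159 and the genes of the closing observations fall outside this rule. A few genes are not reported here and are left out of the plots that name genes. Alternatives covered DESeq2 1.42.0, other size factors, limma-voom 3.58.1, no low-count filter, other windows and count minimums, the replicate block, covariates for tag number and rod level, all 15 libraries together and each library left out.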

Additional observations from a re-analysis of the deposited data

Results flagged for a closer look

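Among the 105 groups of 4 libraries examined, 8 held a library that stood apart from the other 3, and chance gives about 1 in 20. Eif3j1 was at 11.75 CPM in Mertk WT 3, against 8.003 to 8.533 CPM in the others. Vps39 was at 91.78 CPM in Mertk WT 4, against 99.67 to 100.9 CPM. Ganc was at 82.24 CPM in Mertk WT 2, against 66.51 to 68.62 CPM. In Bai1 Tg neg 3, Spg11 was at 56.76 CPM (70.53 to 71.59 CPM in the others) and Tmem87b at 58.25 CPM (70.77 to 73.24 CPM). In Mertk KO 1, Gm10762 was at 4.188 CPM (5.07 to 5.238 CPM in the others) and Dstn at 180.6 CPM (145.1 to 149.9 CPM). Snrpb was at 125.1 CPM in Mertk WT 2, against 179.8 to 183.9 CPM.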

How the results depend on the processing

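The count of window genes past the threshold in Mertk KO against Mertk WT was 11, and 6 to 12 with 1 library left out. It was 15 with DESeq2, 14 without a low-count filter, 11 with limma-voom and 5 with libraries of tag 17 alone. Over all genes, DESeq2 called 74 and the fit without a filter 69, against 30. A half-width of 10 Mb gave 9 and one of 30 Mb gave 15. Summed over both Eif3j copies and Gm3650, Eif3j1 was at 0.086 on the log2 scale, the sign reversed from -2.01. With Eif3j2 alone added it was -0.20, so the reversal came with Gm3650, which matches Spg11 over more bases. Bub1b, Fbln7, Sord and Ivd passed under every alternative run for them, and the other 7 calls were lost under 1 or more. Tmem127, Muc15, Polr1b, Vps39 and Mki67 passed under some alternatives.

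The other comparisons moved as follows. In Bai1 Tg pos against Bai1 Tg neg 0 window genes passed, 1 without a low-count filter, and 0 to 1 with 1 library left out. Over all genes the count was 2, 21 by DESeq2 and 85 without a filter. In Mertk WT against the Bai1 libraries the count was 1, 5 with DESeq2 and 0 to 1 with 1 library left out. In Mertk KO against the Bai1 libraries it was 37, and 20 to 40 with 1 library left out. Over all genes those 2 comparisons called 43 and 551, and 214 and 1041 by DESeq2. The cause of these moves was not tested.

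The replicate number was tried as a block. Same-numbered Mertk KO and Mertk WT libraries had deviations correlated at -0.11, -0.03, 0.15 and 0.24, so the numbers were not taken to pair them. With the replicate block 9 window genes passed in Mertk KO against Mertk WT, 8 of them among the 11, and 0 in Bai1 Tg pos against Bai1 Tg neg. Eif3j1, Eif2ak4 and Sqor were lost (adjusted p = 0.0642, 0.111 and 0.101) and Muc15 passed (adjusted p = 0.0299). In the genes under 1 CPM, few counts limit the precision.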

Other observations

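A further 2 genes of the window passed in Mertk KO against the Bai1 libraries but missed in Mertk KO against Mertk WT and in Mertk WT against the Bai1 libraries. They were chosen after their values were seen. Hypk, a chaperone that works with the ribosome, was at 3.14 ± 0.508 CPM in Mertk KO, 3.69 ± 0.83 CPM in Mertk WT (SD, n = 4 each) and 4.34 to 8.44 CPM (median 6.47) in the Bai1 libraries. Its log2 fold change against the Bai1 libraries was -1.00 in Mertk KO (edgeR adjusted p = 0.0212) and -0.75 in Mertk WT (adjusted p = 0.216). Spred1, which restrains Ras signalling, was at 36.3 ± 2.48 CPM, 36.9 ± 5.44 CPM and 39.6 to 53.2 CPM (median 46.3), the Mertk WT and Bai1 libraries overlapping, with changes of -0.33 (adjusted p = 0.0389) and -0.30 (adjusted p = 0.317). In Mertk KO against Mertk WT the adjusted p was 0.914 for Hypk and 0.981 for Spred1.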
